A study of Mus musculus with 4 samples.

Results

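The nuclear-encoded subunits of respiratory complex I were followed in fetal brown adipose tissue (BAT) from fructose-fed and control dams. Members were the genes of the count table whose mouse symbol starts with Ndufa, Ndufb, Ndufc, Ndufs or Ndufv, without the Ndufaf assembly factors and without pseudogenes, and 39 of 22298 genes met this rule. The RNA came from C57BL/6 fetuses, labelled male, at E18.5, shortly before birth. Control dams drank tap water and fructose dams drank 20% (w/v) fructose water during pregnancy, and each group had 2 RNA-seq libraries (control 1 and 2, fructose 1 and 2). No source used here states how many fetuses or litters went into a library, so the p-values measure only the spread between these 4 samples.

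Complex I, or NADH:ubiquinone oxidoreductase, takes electrons from NADH, passes them along a chain of iron-sulfur clusters to ubiquinone and pumps protons across the inner mitochondrial membrane. Its peripheral arm holds the N module, where NADH is oxidised, and the Q module, where ubiquinone is reduced, and its membrane arm holds a proximal and a distal part that pump protons. Core subunits carry out the chemistry and are encoded partly in the nucleus and partly in the mitochondrial genome, while the accessory subunits around them are all nuclear and serve assembly and stability. Brown fat is rich in mitochondria, whose respiratory chain builds the proton gradient that uncoupling protein 1 (Ucp1) dissipates as heat.

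Total counts per library lay between 18542897 and 23645147, and every member had at least 534 counts in every library. The tissue label held in all 4 libraries, with Ucp1 between 9605.7 and 12424.9 CPM (counts scaled to library size with edgeR's TMM factors). The sex label did not. Summed over Uty, Kdm5d, Ddx3y and Eif2s3y, genes of the Y chromosome, control 1 held 422 counts and control 2 held 390, whereas fructose 1 and 2 held 0, which allows up to 3 counts in a library by counting error. Diet and this difference cannot be told apart in any comparison below. The summed level of 12 skeletal muscle genes was 235 and 319 CPM in control and 760 and 555 CPM in fructose. None of the 12 was at 0, and all 12 rose (edgeR adjusted p under 0.05), where 15.5% of all tested genes did. The part of these muscle genes in the subunit results was not tested. The summed level of 4 erythroid genes was 11625.5 and 14470.8 CPM in control against 8838.3 and 9115.9 CPM in fructose, and their part was not tested either. Across 12884 genes the log2 fold change rose with transcript length (Spearman's rho 0.497) and fell with GC content (rho -0.527), whereas the differences between libraries of 1 group followed them less (length, 0.0178 in control and 0.161 in fructose; GC content, 0.134 and -0.208).

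With TMM scaling, the subunit transcripts were lower in fetal BAT of fructose-fed dams. By edgeR's quasi-likelihood test at an adjusted p under 0.05, 31 of the 39 members fell and 0 rose. Of all 12888 tested genes, 10.7% fell and 15.5% rose by the same rule. Most of these calls were lost when each library's trend in transcript length was removed before the test (2 members lower, median log2 fold change -0.087) and when trends in length and GC content were both removed (4 members lower, median -0.065). Of all tested genes 7.53% and 3.06% fell in those fits. Scaling by library size alone left 21 members lower, where 6.67% of tested genes fell. With TMM scaling all 39 log2 fold changes were below 0, as were 49.7% of those of all tested genes, and their median was -0.31 against 0.0024 for all genes with an annotated length. In 38 members both fructose libraries lay below both control libraries, a pattern found in 31.6% of tested genes, and Ndufs1 was the exception. The changes were small, with fructose to control ratios between 0.697 and 0.96, and 29 of the 39 log2 fold changes lay between -0.4 and -0.2. With the thresholds of the study's methods (unadjusted p under 0.05 and a fold change above 1.3), 9 members were lower, and 6.18% of tested genes were. Leaving out fructose 2 left 5 members lower and leaving out fructose 1 left 16, with the median at -0.30 and -0.34, while the share of all tested genes called lower went to 3.71% and 6.31%. In bulk tissue, fewer cells of a type and less RNA per cell cannot be told apart.

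**Figure D1:**
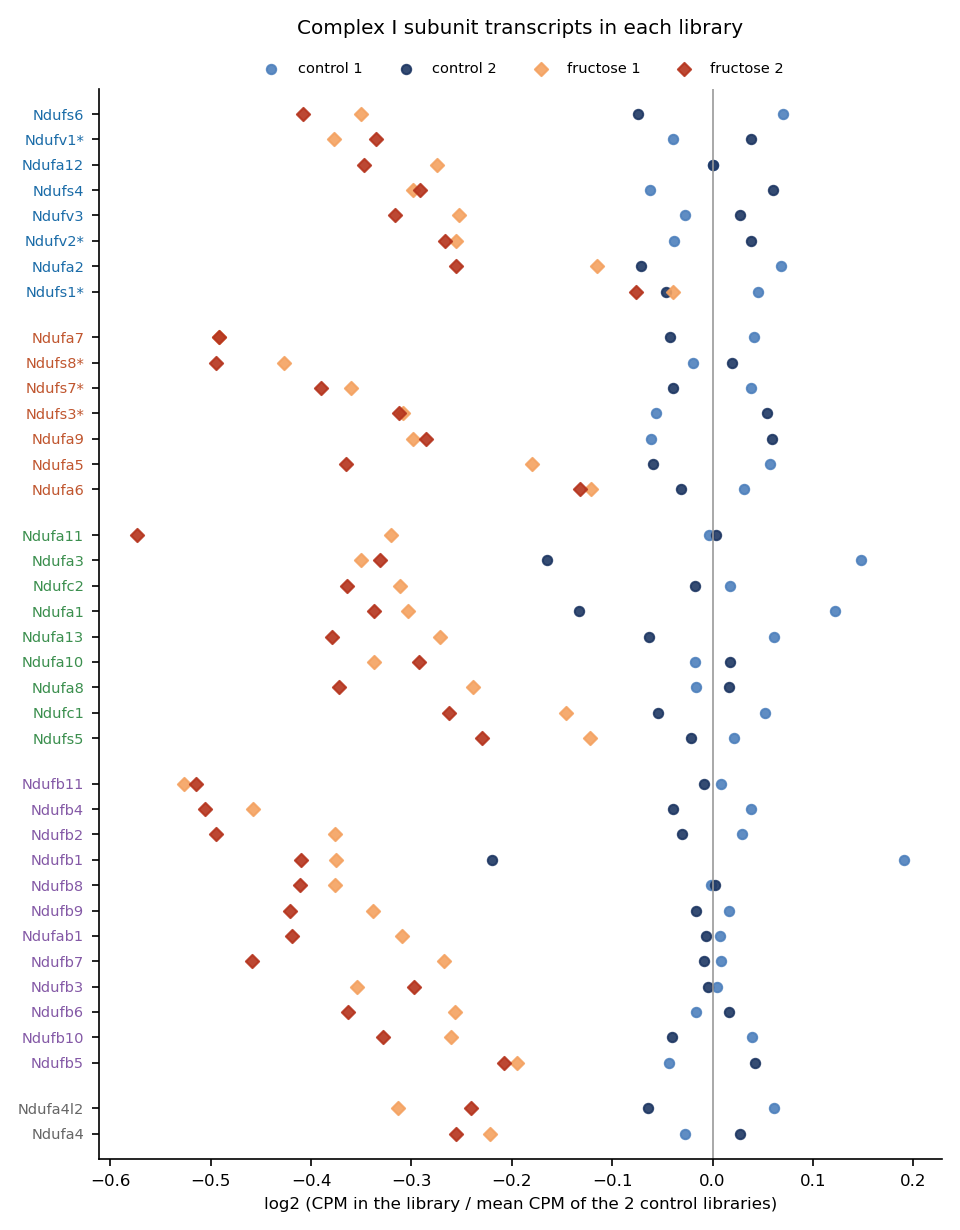
Each row is a complex I subunit, 38 of the 39 in all, and the horizontal axis gives log2 of its CPM in a library over the mean CPM of the 2 control libraries, so that 0 is the control mean. Circles are the control libraries and diamonds the fructose libraries. Label colours mark the N module, Q module, proximal membrane arm, distal membrane arm and the 2 members outside the modules, from top to bottom, and asterisks mark core subunits. The diamonds lie to the left of both circles in every row but that of Ndufs1, where they meet.

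Together the 39 members took 2.55% of all counts in each control library and 2.12% in each fructose library. Levels per transcript length, in CPM per kb, differed far more between subunits than between diets. Among the 37 module members, by the length of the principal transcript, the control mean spanned 24-fold, with Ndufb8 at the top (2261.3 CPM per kb) and Ndufb2 at the bottom (94.2 CPM per kb). The order was kept between diets (Spearman's rho of the mean levels 0.995 across the 39 members, which share their libraries). Replicates of a member lay close together, with a median difference on the log2 scale of 0.077 in control and 0.052 in fructose. The widest replicate difference was 0.41 in control, in Ndufb1, and 0.25 in fructose, in Ndufa11. Per-length levels depend on the transcript chosen, and those of Ndufb2 and Ndufab1 rest on annotated principal transcripts of 4371 and 3479 nt, while the median of their coding transcripts was 2413 and 984 nt. With the merged length of all exons, Ndufb6 stood at the top (1200.1 CPM per kb), Ndufb8 came to 489 CPM per kb and Ndufs1 stood at the bottom (50.4 CPM per kb). With the median length of the coding transcripts, Ndufb8 stayed at the top (2798.3 CPM per kb) and Ndufa5 stood at the bottom (153 CPM per kb).

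**Figure D2:**
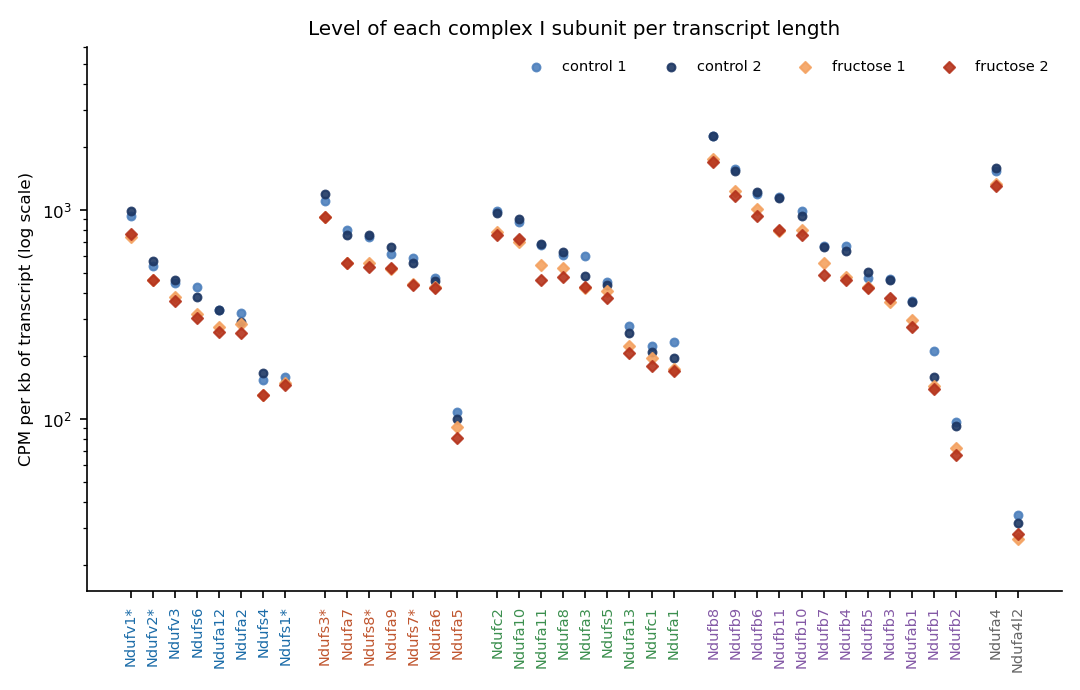
The level of each complex I subunit in CPM per kb of transcript is shown on a log scale, 1 point per library, for 38 of the 39 members, ordered within each module by the control mean. Circles are control and diamonds fructose libraries, label colours mark the modules and asterisks the core subunits. Ndufb8 stands highest, and Ndufa4l2 (control mean 33.2 CPM per kb) stands lowest.

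In the N module, 6 of 8 members fell, and the median log2 fold change was -0.29 (range -0.38 to -0.058). Ndufv1, the core subunit that binds NADH and its flavin cofactor, had the highest per-length level of this module by its principal transcript (962 CPM per kb in control). With median transcript lengths Ndufv2 (1157.8 CPM per kb) and Ndufv3 (1115 CPM per kb) lay just above Ndufv1 (1112.5 CPM per kb), and the level of Ndufv2 by its principal transcript was 555 CPM per kb. Ndufv1 stood at 1554.1 and 1640.9 CPM in control and 1229.7 and 1265.8 CPM in fructose, a log2 fold change of -0.36 ± 0.09 (SE, edgeR adjusted p = 0.012). The Ndufv1 gene lies on chromosome 19 from 4007384 to 4012806 (GRCm38). Ndufv2, its iron-sulfur partner, stood at 916 and 966 CPM in control and 788 and 782 CPM in fructose (log2 fold change -0.26 ± 0.08, edgeR adjusted p = 0.039). This call was lost with the replicate number as a block (edgeR adjusted p = 0.061), with scaling by library size alone (0.081) and without control 2 (0.058), fructose 1 (0.17) or fructose 2 (0.22). Both flavoprotein subunits thus had all fructose values below all control values. Ndufs1, the largest core subunit and carrier of several iron-sulfur clusters, stood at 420 and 394 CPM in control and 396 and 386 CPM in fructose. Its groups overlapped, and its log2 fold change of -0.058 ± 0.08 was the highest of the 39 members (edgeR adjusted p = 0.64).

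Ndufs4, an accessory subunit at the junction of the N and Q modules whose loss can cause Leigh syndrome, stood at 259 and 282 CPM in control and 220 and 221 CPM in fructose (log2 fold change -0.29 ± 0.08, edgeR adjusted p = 0.022). It did not pass with scaling by library size alone (edgeR adjusted p = 0.05) or without control 2 (0.059), fructose 1 (0.12) or fructose 2 (0.13). The other members of the N module that fell were Ndufs6, Ndufa12 and Ndufv3, with log2 fold changes of -0.38, -0.31 and -0.28. Ndufa2, an accessory subunit with a thioredoxin-like fold, did not pass the test (184 and 167 CPM in control, 162 and 147 CPM in fructose, edgeR adjusted p = 0.14).

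In the Q module, 7 of 8 members fell, with a median log2 fold change of -0.30 (range -0.49 to -0.13). Ndufs7, a core subunit which carries the iron-sulfur cluster nearest the ubiquinone, was at 576 and 546 CPM in control and 437 and 428 CPM in fructose (log2 fold change -0.38 ± 0.08, edgeR adjusted p = 0.007). Its fructose libraries were closer together than its control libraries, and the groups did not overlap. Ndufs3, another core subunit, was at 1150.6 and 1241.7 CPM in control and 966 and 963 CPM in fructose (log2 fold change -0.31 ± 0.09, edgeR adjusted p = 0.021). Ndufs8, which carries the iron-sulfur clusters that lead from the N module towards the ubiquinone site, was at 744 and 764 CPM in control and 561 and 535 CPM in fructose. Its log2 fold change of -0.46 ± 0.08 (edgeR adjusted p = 0.0027) was the lowest of the core subunits named here.

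The accessory subunits of the Q module spanned the widest range of log2 fold changes among the modules. Ndufa7 on chromosome 17 (33824572 to 33838317) had 424 and 400 CPM in control and 293 CPM in both fructose libraries, with the 2nd lowest log2 fold change of all 39 members (-0.49 ± 0.08, edgeR adjusted p = 0.0018). Ndufa6, a LYR-motif protein that docks the acyl carrier protein, had 280 and 268 CPM in control and 252 and 250 CPM in fructose. The groups of Ndufa6 did not overlap, but its log2 fold change of -0.13 ± 0.08 missed the threshold (edgeR adjusted p = 0.26). Ndufa9 and Ndufa5 fell, with log2 fold changes of -0.29 and -0.27.

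In the proximal membrane arm, 7 of 9 members fell, with a median log2 fold change of -0.32 (range -0.44 to -0.18). Ndufc2 had the highest per-length level of the proximal arm by its principal transcript (972 CPM per kb in control), while with median transcript lengths Ndufa10 stood above it (1510.7 against 1151.9 CPM per kb). The Ndufc2 values of 672 and 656 CPM in control and 535 and 516 CPM in fructose gave a log2 fold change of -0.34 ± 0.08 (edgeR adjusted p = 0.012). Ndufa11, which lies where complex I meets complex III in the supercomplex, had 371 and 373 CPM in control and 298 and 250 CPM in fructose (log2 fold change -0.44 ± 0.09, edgeR adjusted p = 0.0063). Its fructose libraries were the furthest apart of any member, and both were below the controls. Ndufs5, an intermembrane-space subunit, had 307 and 298 CPM in control and 278 and 258 CPM in fructose and did not pass the test (log2 fold change -0.18 ± 0.08, edgeR adjusted p = 0.13). Ndufc1 missed it too (log2 fold change -0.20, edgeR adjusted p = 0.097), and Ndufa1, Ndufa3, Ndufa8, Ndufa10 and Ndufa13 fell, with log2 fold changes between -0.34 and -0.30.

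With TMM scaling the distal membrane arm had the lowest median of the 4 parts (log2 fold change -0.37, range -0.52 to -0.20). Of its 12 members 11 fell. With the length trend removed the medians were -0.12 (Q module), -0.10 (N module), -0.093 (distal arm) and -0.04 (proximal arm). With length and GC trends both removed they were -0.051, -0.071, -0.078 and 0.003 in the same order. Whether the parts differ from each other was not tested. Ndufb11, an X-linked transmembrane subunit (chromosome X, 20615326 to 20617619), had the lowest log2 fold change of all 39 members. It was at 1044.9 and 1032.4 CPM in control and 721 and 727 CPM in fructose (log2 fold change -0.52 ± 0.08, edgeR adjusted p = 0.0015). Within each diet its 2 values were almost equal, and the groups were far apart. Ndufb4 on chromosome 16 (37647170 to 37654453) followed, at 653 and 619 CPM in control and 463 and 448 CPM in fructose (log2 fold change -0.48 ± 0.08, edgeR adjusted p = 0.0021). Ndufb8, the highest member per length of principal transcript, was at 1535.6 and 1539.7 CPM in control and 1184.8 and 1156.5 CPM in fructose (log2 fold change -0.39 ± 0.09, edgeR adjusted p = 0.0067).

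Ndufb2 was at 420 and 403 CPM in control and 317 and 292 CPM in fructose (log2 fold change -0.43 ± 0.08, edgeR adjusted p = 0.004). Ndufab1, the mitochondrial acyl carrier protein, which also serves mitochondrial fatty acid synthesis, was at 1280.1 and 1267.9 CPM in control and 1028.1 and 953 CPM in fructose (log2 fold change -0.36 ± 0.09, edgeR adjusted p = 0.011). Ndufb1 was the noisiest member of the arm, with 182 and 137 CPM in control and 123 and 120 CPM in fructose (log2 fold change -0.39 ± 0.11, edgeR adjusted p = 0.027). Its call was lost with scaling by library size alone (edgeR adjusted p = 0.066) and without control 1 (0.18) or fructose 2 (0.064). The annotation of the files' build lists it as Ndufb1-ps with a non-coding biotype, and RefSeq lists it as the protein-coding gene Ndufb1. Only Ndufb5 missed the threshold in this arm (log2 fold change -0.20, edgeR adjusted p = 0.093), and Ndufb3, Ndufb6, Ndufb7, Ndufb9 and Ndufb10 fell, with log2 fold changes between -0.38 and -0.29.

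Core and accessory subunits were alike in their medians, at -0.31 for the 7 nuclear core subunits, 6 of which fell, and -0.32 for the 30 accessory subunits of the modules, 25 of which fell. The 2 X-linked members, Ndufb11 and Ndufa1, both fell, and among the 37 autosomal members 29 did, where 10.8% of autosomal tested genes fell.

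The pair outside the modules missed the threshold. Ndufa4, long counted to complex I and now assigned to cytochrome c oxidase, was at 930 and 966 CPM in control and 813 and 794 CPM in fructose (log2 fold change -0.24 ± 0.08, edgeR adjusted p = 0.055). Its paralog Ndufa4l2, a target of the hypoxia-inducible factor, was at 32.3 and 29.6 CPM in control and 24.9 and 26.2 CPM in fructose (log2 fold change -0.28 ± 0.10, edgeR adjusted p = 0.067). The groups did not overlap in either. Per length, the control mean was 1554.1 CPM per kb for Ndufa4 and 33.2 CPM per kb for Ndufa4l2.

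Some subunits share sequence with processed copies or overlap another gene, so their counts are uncertain, since the treatment of strand and of reads matching more than 1 gene is not given in the sources used here. A stretch of 50 bases was shared with another annotated gene in 22 members, and 18 members shared under 1% of such stretches. The shared part was largest in Ndufs3 (39.7%, with the processed pseudogenes Gm11927 and Gm12251 and the gene Kbtbd4), Ndufb4 (37%, with 3 processed pseudogenes including Ndufb4c) and Ndufb6 (34.1%, with Smim27 on the other strand). In Ndufa11, 12.5% was shared with its processed copy Ndufa11b and with Vmac. Of 4 annotated pseudogenes whose symbol met the rule, 0 were in the count table. Among the 25 members with under 10% shared, the median log2 fold change was -0.30. Exons of another gene of the table overlapped 16 members, mostly on the opposite strand, with Ndufb5 and Mrpl47 sharing the longest overlap (616 bases).

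To compare the transcripts of the members with each other, each was tested against the summed counts of the 37 module members in place of the whole library. The module members are part of that sum, so as a set they centre near 0 by construction. The make-up of the protein complex was not measured. On this scale 27 of 39 members lay within 0.1 of 0 in log2, and the range was -0.19 to 0.28. By edgeR's quasi-likelihood test 2 members rose and 0 fell against the sum, and 3 had an unadjusted p under 0.05. In this scaling 41.9% of all tested genes rose and 0.38% fell. The members that rose against the sum were Ndufs1 (0.28 ± 0.08, edgeR adjusted p = 0.015) and Ndufa6 (0.21 ± 0.08, edgeR adjusted p = 0.046). Their unadjusted edgeR p were 0.0047 and 0.019. The adjustment ran over all tested genes, and with 41.9% of them higher it was mild. No adjustment over the 39 members alone was made, so these 2 calls do not show that either member departs from the others. Ndufb11, at -0.19 ± 0.08 (edgeR adjusted p = 0.072), did not pass. With length and GC trends removed, Ndufa6 still rose against the sum (0.36 ± 0.07, edgeR adjusted p = 0.017) and Ndufs1 did not (-0.072 ± 0.08, edgeR adjusted p = 0.61). Ndufb2, Ndufab1, Ndufv2 and Ndufs4 fell. The share of all tested genes called in this last fit was not computed, so its calls cannot be set against a background.

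Subunit transcripts are short, and 37 of the 39 were below the median length of tested genes (3032 nt), with a median of 908 nt. The 645 shortest tested genes, with a median length of 763 nt, had a median log2 fold change of -0.30 and quartiles of -0.44 and -0.13, beside the members' median of -0.31. The next 645, with a median length of 1111 nt, had a median of -0.23 and quartiles of -0.37 and -0.07. The members' median length lies between those of these 2 bins. The 644 longest had a median of 0.53. Within the 39 members the log2 fold change followed length little (Spearman's rho 0.148) and GC content somewhat more (rho -0.379), as a description over genes that share their libraries.

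**Figure D3:**
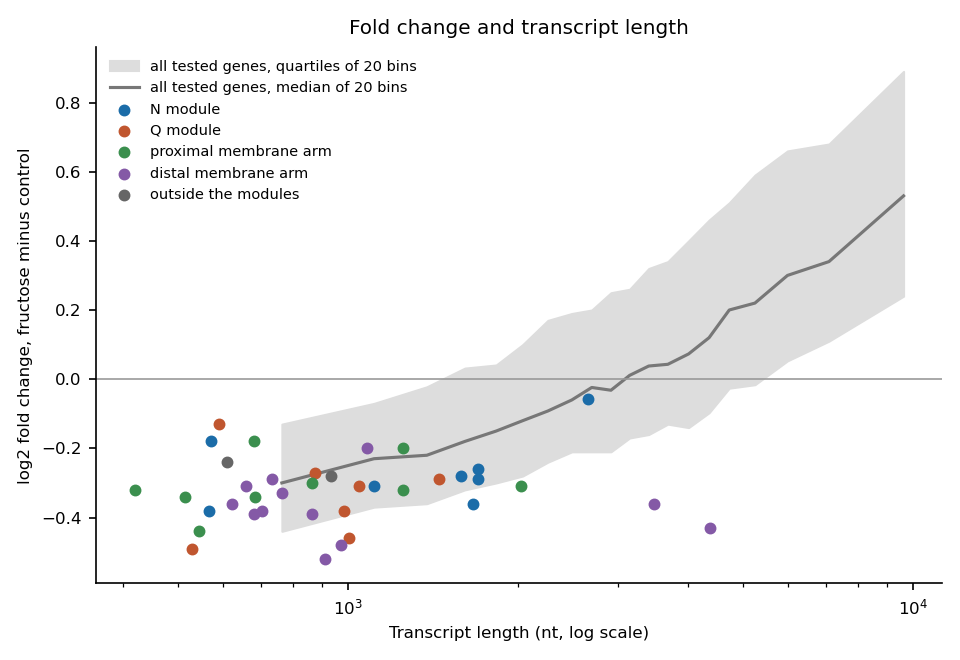
The log2 fold change, fructose minus control, is plotted against transcript length on a log axis. Points are 38 of the 39 complex I subunits coloured by module, the line is the median and the shaded band the quartiles of 20 bins of all tested genes. Most subunits lie at the short end, where the line is lowest, and the 2 rightmost purple points are Ndufab1 and Ndufb2.

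When a smooth trend in length was removed from each library before the test, 2 members fell and the median was -0.087, and 7.53% of all tested genes fell. With the GC trend removed alone, 18 members fell with a median of -0.28, and again 7.53% of tested genes fell. With both trends removed, 4 members fell and 0 rose, the median was -0.065, and 27 of 39 log2 fold changes were below 0, where 3.06% of tested genes fell and 50.8% had values below 0. Which of these fits is nearer to the fetal tissue was not tested.

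The 4 members lower with both trends removed were Ndufb2 (-0.78 ± 0.09, edgeR adjusted p = 7.7e-04), Ndufab1 (-0.56 ± 0.09, edgeR adjusted p = 0.0052), Ndufv2 (-0.52 ± 0.09, edgeR adjusted p = 0.0098) and Ndufs4 (-0.47 ± 0.09, edgeR adjusted p = 0.013). Their transcripts had GC contents of 43.7%, 45.3%, 42% and 43.1%, below the member median of 52.2%. Ndufb2 and Ndufab1 were also the longest members. With the median length and GC content of each gene's coding transcripts in place of its principal transcript, a choice made after seeing the data, 9 members fell, where 4.33% of tested genes did. These were the same 4 (Ndufb2 at -0.50, Ndufab1 at -0.44, Ndufs4 at -0.47 and Ndufv2 at -0.41) and Ndufa1, Ndufa4, Ndufb3, Ndufb4 and Ndufb11.

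**Figure D4:**
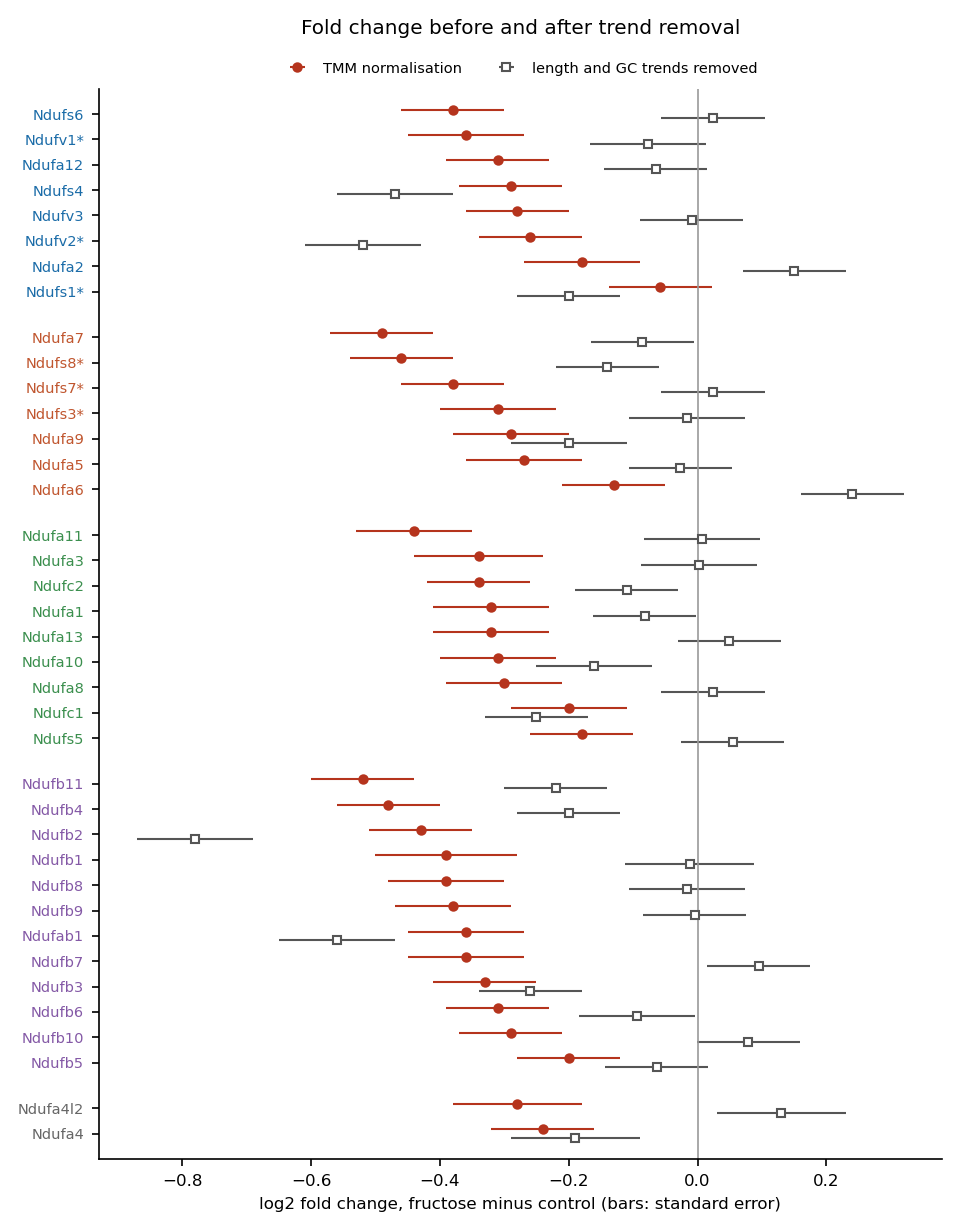
Log2 fold changes, fructose minus control, of 38 of the 39 subunits are shown with TMM normalisation (filled circles) and with length and GC trends removed (open squares), with bars for the standard error. Labels are coloured by module and asterisks mark core subunits. All circles lie left of 0, while the squares scatter on both sides of it, with Ndufb2, Ndufab1, Ndufv2 and Ndufs4 furthest to the left.

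The subunits encoded in the mitochondrial genome went the other way. These 7 core subunits of the membrane arm, mt-Nd1 to mt-Nd6 and mt-Nd4l, make up its proton-pumping base. They summed to 15494.1 and 16345.4 CPM in control and 24968.8 and 25002.7 CPM in fructose, while the 37 nuclear module members summed to 24938.6 and 25259.9 CPM in control and 20169.1 and 19658.3 CPM in fructose. The ratio of the mitochondrial to the nuclear sum was 0.621 and 0.647 in control and 1.24 and 1.27 in fructose. By edgeR's quasi-likelihood test, 6 of the 7 rose, where 15.5% of all tested genes did. The log2 fold changes of these 6 ran from 0.35 for mt-Nd6 to 1.24 for mt-Nd4l, and mt-Nd2 missed the threshold (0.22 ± 0.10, edgeR adjusted p = 0.12).

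The 2 sets of genes differ in base composition. The mitochondrial subunits had a median GC content of 35.7% against 52.2% for the nuclear members. With the GC trend removed 1 of the 7 rose and 2 fell, where 969 of 12888 tested genes rose and 7.53% fell. With both trends removed only mt-Nd4l rose (1.13, edgeR adjusted p = 4.8e-04), where 458 of 12888 tested genes rose. All 13 mitochondrially encoded genes together took 5.89% and 6.49% of counts in control and 10.8% and 11.2% in fructose, and the part of organelle RNA content in these values was not tested.

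**Figure D5:**
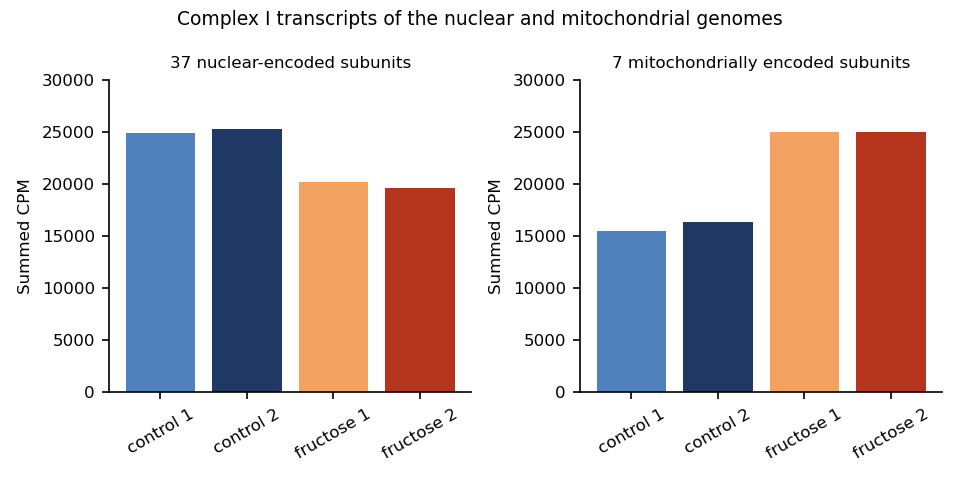
Bars give the summed CPM of the 37 nuclear-encoded module subunits (left) and the 7 mitochondrially encoded subunits (right) of complex I in each library, on axes that start at 0. The nuclear sums are lower in both fructose libraries (20169.1 and 19658.3) than in both control libraries, and the mitochondrial sums are higher (24968.8 and 25002.7).

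Other genes of the pathway were read from the same fit. Among 18 tested complex I assembly factors, which build the complex and leave it, 3 fell and 0 rose, with a median log2 fold change of -0.21, where 10.7% of all tested genes fell. They were Ndufaf8 (-0.40, edgeR adjusted p = 0.011), Dmac1 (-0.39, edgeR adjusted p = 0.0051), which assembles the distal arm, and Ndufaf3 (-0.32, edgeR adjusted p = 0.019). The count was 7 without control 1 and 1 without fructose 2, where 12.8% and 3.71% of tested genes fell. With both trends removed only Nubpl, which delivers iron-sulfur clusters to complex I, was lower (-0.57, edgeR adjusted p = 0.0096).

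Of 41 nuclear subunits of complexes II to V, 22 fell and 1 rose, where 10.7% of all tested genes fell and 15.5% rose. The median of the 41 was -0.32, beside -0.31 for the complex I subunits. Cox6a1 (-0.49, edgeR adjusted p = 0.0027) and Cox4i1 (-0.46, edgeR adjusted p = 0.0041), both of complex IV, were among those that fell. The member that rose was Cox6a2, the heart and muscle form of the same subunit as Cox6a1 (1.34, edgeR adjusted p = 0.0057). Fewer fell when fructose 2 was left out. Removing both trends left 1 lower, Sdhc, and 2 higher, Cox6a2 and Atp5j. In that fit 3.06% of all tested genes fell and 458 of 12888 rose.

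Regulators of respiratory genes moved less uniformly, with 7 of 14 higher and 1 lower by edgeR's quasi-likelihood test. Of all tested genes, 15.5% rose and 10.7% fell. Ppargc1a, the coactivator of mitochondrial biogenesis and thermogenesis, was at 6.91 and 7.49 CPM in control and 14.2 and 17.9 CPM in fructose (log2 fold change 1.16, edgeR adjusted p = 8.1e-04). Esrrg (1.43), Gabpb2 (0.92), Gabpa (0.81), Ppargc1b (0.73), Tfb2m (0.48) and Yy1 (0.31) also rose, and Esrra, the estrogen-related receptor that partners the coactivators, fell (-0.27, edgeR adjusted p = 0.031). Their median length was 4577 nt. With both trends removed only Esrrg (0.92, edgeR adjusted p = 0.026) and Ppargc1b (0.84, edgeR adjusted p = 0.032) remained higher, where 458 of 12888 tested genes rose. Cell type lists were read beside the shares of all tested genes with TMM scaling (15.5% higher, 10.7% lower). Of 8 brown adipocyte genes 2 rose (Ebf2 and Ppargc1a) and 1 fell (Cox8b). Ppargc1a is also counted among the regulators, and Cox8b among the subunits of complexes II to V. Of 5 pan-adipocyte genes 2 fell and 0 rose. The 4 liver genes together stayed under 1 CPM in every library (0.721 to 0.973).

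The letters of the members' promoters were also read, and their part in the fold changes was not tested. RefSeq promoter windows of 300 bases (250 before to 50 after the start, GRCm38.p6) were found for 34 of the 39 members, in 36 windows, and 7 motifs of respiratory and general promoters were searched on both strands. The median GC content was 59.2% in the members' windows and 52.7% in all 32851 windows.

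The Sp1 letters (GGGCGG) were in 44.4% of member windows and 35.7% of all windows, and CCAAT in 27.8% and 37.4%. TATAAA was in 13.9% and 13.6%. The ETS letters bound by GABPA (CCGGAAG) were in 11.1% of member windows against 8.86% of all, and in 35.3% of the 34 windows of complexes II to V. Those of NRF1 (CGCATGCG, its own reverse complement) were in 5.56% against 1.87%, and in 20.6% for complexes II to V. The ERR letters (TCAAGGTCA) were in 0 of 36 member windows and 0.423% of all. The YY1 letters (AAGATGGCG) were in 13.9% of member windows, 1.4% of all and 5.88% of those of complexes II to V. None of the 7 letter runs contains another, the shares were not tested, and a match is a run of letters and not a bound site.

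The YY1 letters stood in 5 members, always on the gene's own strand and from 23 to 36 bases after the start. Of all windows, 0.636% had these letters on the gene's strand after the start. In all 5 the run holds the annotated start codon, so that its letters from ATG on are also the first codons of the protein. The sites are shown with up to 10 bases on each side and the YY1 letters in capitals.
Ndufa9, chr6:126849097-126849125, minus strand: attgtgggagAAGATGGCGgccgccgtcc
Ndufc1, chr3:51408915-51408943, minus strand: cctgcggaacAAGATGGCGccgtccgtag
Ndufs4, chr13:114388045-114388069, minus strand: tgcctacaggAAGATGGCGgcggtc
Ndufs6, chr13:73328433-73328459, minus strand: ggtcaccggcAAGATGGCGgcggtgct
Ndufs7, chr10:80249463-80249491, plus strand: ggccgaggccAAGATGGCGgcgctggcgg

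The NRF1 letters stood before the RefSeq start in 2 members, Ndufa11 at position -59 and Ndufa8 at position -9, and are in capitals here. In the GENCODE annotation used for transcript lengths, Ndufa8 reaches further upstream (to 36049406), so there its site lies inside the gene.
Ndufa11, chr17:56717693-56717720, plus strand: ctgcactgcgCGCATGCGcgcacgcctt
Ndufa8, chr2:36049330-36049357, minus strand: tcgctggagaCGCATGCGcagatggtac

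The median log2 fold change was -0.29 in the 5 members with the YY1 letters and -0.32 in the 29 without, and -0.37 in the 2 with the NRF1 letters and -0.32 in the 32 without. No window held more than 2 different motifs, and of those with 2 the first by symbol were Ndufa13, Ndufa3, Ndufa6 and Ndufa8. In Ndufa13 and Ndufa8 the longest upstream stretch outside annotated exons had 0 and 51 bases and is not printed. Those of Ndufa3 and Ndufa6 are printed with motif letters in capitals, TATAAA and GGGCGG in Ndufa3 and CCAAT in Ndufa6. Fold change played no part in this choice. Ndufa3 fell (log2 fold change -0.34), and Ndufa6 was the least changed accessory subunit (-0.13).
Ndufa3, chr7:3617123-3617372, plus strand: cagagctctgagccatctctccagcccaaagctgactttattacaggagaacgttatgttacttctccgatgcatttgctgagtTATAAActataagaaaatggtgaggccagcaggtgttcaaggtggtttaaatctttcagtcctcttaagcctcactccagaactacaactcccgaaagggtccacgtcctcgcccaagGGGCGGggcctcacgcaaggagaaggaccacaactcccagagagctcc
Ndufa6, chr15:82354323-82354541, minus strand: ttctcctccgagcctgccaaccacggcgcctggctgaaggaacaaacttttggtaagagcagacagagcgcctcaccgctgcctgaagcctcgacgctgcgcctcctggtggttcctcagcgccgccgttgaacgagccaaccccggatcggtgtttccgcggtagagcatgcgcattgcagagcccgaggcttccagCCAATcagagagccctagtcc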

How the data were processed

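The authors filtered reads with fastp, mapped them to mm10 with Bowtie2 2.0.0.5 and TopHat2 2.0.0, and assembled and merged transcripts with StringTie 2.2.0 and Cuffmerge, per the study's methods and the submitters' processing notes. The deposited values are whole-number read counts of each gene, neither normalized nor pooled over the 4 libraries. The counting tool and its treatment of strand and multiply matching reads are not given in the sources used here. Each library's own table repeats its column of the joint table.

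Symbols and transcript lengths came from GENCODE M21 (GRCm38), and 43 of 22298 identifiers had no match. Counts were tested with edgeR 4.0.16 (R 4.3.3), two-sided, with TMM, filterByExpr (12888 genes kept), the quasi-likelihood test and Benjamini-Hochberg adjustment over all tested genes, without covariates. CPM were scaled with the TMM factors. Trends were removed by lowess (span 0.3) of each library on the log2 length and the GC content of the longest principal transcript. Scripts were tested on simulated data. Levels per length used that transcript, with the merged exon length and the median coding transcript as alternatives. Alternatives to the test were DESeq2 1.42.0, other scalings and filters, the replicate number as a block, and each library left out. The replicate numbers come from the sample titles and marked no shared litter or day.

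Depth ran from 18542897 to 23645147 counts, and limits on counts of 0 cover counting error only. Full values are given for nuclear core subunits, the highest member per length of each module, the 3 lowest and 3 highest fold changes, the paralogs and copies, and members called with both trends removed. The modules follow textbook assignments, and accounts differ on Ndufa6, Ndufa7, Ndufa9 and Ndufa11. Members and lists were chosen with earlier results of these data known, and the test against the summed subunits and the YY1 and NRF1 sites were added after seeing the data. Promoter sequences are RefSeq's (GRCm38.p6). The values of 1 member are not reported here by name and it is left out of the plots of single members, but it is counted in the totals.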

Additional observations from a re-analysis of the deposited data

How the results depend on the processing

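The fewest members were called with the length trend removed, and the median was nearest 0 with both trends removed. Against 31 members called lower and a median of -0.31, 2 members and -0.087 remained with the length trend removed, 18 and -0.28 with the GC trend removed, and 4 and -0.065 with both removed. With the median transcript of each gene, chosen after seeing the data, these were 7 and -0.18 (length) and 9 and -0.16 (both). The study's thresholds gave 9. Scaling by library size alone gave 21 members and a median of -0.25, and it moved the share of higher among all called genes from 59.2% to 72.3%. Leaving out each library in turn gave 5 to 31 members lower, with the lowest count without fructose 2. Members called higher were 0 in every edgeR fit listed here and in the DESeq2 fit, which was run at 1 setting, and 0 had an unadjusted p under 0.05 with a positive log2 fold change in the edgeR fit reported.

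The replicate numbers were not treated as pairs: the differences between libraries 2 and 1 of both groups had a correlation of -0.0266 over the tested genes. With the replicate block, 30 members were lower with a median of -0.32 and the call of Ndufv2 was lost (edgeR adjusted p = 0.061), and with the replicate block and trend removal 2 at -0.086 (length), 19 at -0.28 (GC) and 4 at -0.065 (both).

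The mitochondrially encoded subunits called higher went from 6 to 1 with the GC trend removed and with both removed, each also with the replicate block, and to 1 with both removed by median transcripts. Assembly factors called lower went from 3 to 0 (length, with or without the block), 5 (GC), 6 (GC with the block), 1 (both, with or without the block) and 1 (length, median transcript), and leaving out libraries gave 1 to 7. Subunits of complexes II to V called lower went from 22 to 2 (length, with or without the block), 1 (both), 14 (GC with the block), 2 (both with the block), 7 (length, median transcript) and 3 (both, median transcript), and leaving out libraries gave 5 to 28.

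Over all tested genes, those called lower went from 1379 to 859 (library size only), 395 (both trends), 676 (length with the block), 416 (both with the block) and 558 (both, median transcript), and leaving out libraries gave 485 to 1700. Those called higher went from 2001 to 1280 (DESeq2), 1169 (length), 969 (GC), 458 (both), 979 (length with the block), 1132 (GC with the block), 538 (both with the block) and 813 (both, median transcript), and leaving out libraries gave 1207 to 2225.

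Of the 39 members, 8 had a positive log2 fold change with the length trend removed (at most 0.19), 12 with both removed (at most 0.24), 4 with both removed by median transcript (at most 0.072) and 0 with the GC trend removed. Of the members described with full values, Ndufa6 went to 0.19 (length) and 0.24 (both), the same with the block, and to 0.046 and 0.072 by median transcript. Ndufs5 went to 0.12 (length) and 0.055 (both), the same with the block, and to 0.023 (both, median transcript). Ndufa4 went to 0.07 (length) and 0.073 with the block. Ndufa4l2 went to 0.13 (both, with or without the block) and 0.033 (both, median transcript). Ndufa11 went to 0.0075 (both) and 0.0072 with the block, and Ndufs7 to 0.024 (both, with or without the block). Ndufs1 went to 0.0021 (library size only), 0.089 (length, median transcript) and 0.039 (both, median transcript). Apart from that of Ndufs1 by library size only, these turns came with a trend removed, and why the libraries carry such trends was not tested. With 2 libraries a group, standard errors were near 0.08, and changes of the size of Ndufa2, Ndufs5 or Ndufa6 did not pass at this precision.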
